A study of Mus musculus with 6 samples.

Results

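The genes described here are 10 genes of the NRF2 antioxidant system, chosen by name and read from every probe that carries their symbol: the regulators Nfe2l2 and Keap1 and the targets Hmox1, Nqo1, Gclc, Gclm, Txnrd1, Srxn1, Gsr and Prdx1. The table held 17 probes for 9 of them, and Gsr was not analysed here. Of the 9, 7 were bright enough to be tested, among 8990 genes tested in all. The RNA came from mouse embryonic fibroblasts (MEFs, connective tissue cells cultured from embryos) of the C57BL/6 background, grown to 50% confluence with 10% serum. In 3 samples the cells carried a truncated NELF-B whose labels name an ATG start, and in 3 samples the full-length NELF-B. NELF-B is a subunit of the complex that holds RNA polymerase II near promoters. The labels give no age or sex of embryo, do not say whether the cells were a clonal line, and do not say how the NELF-B forms were brought in or whether each sample was its own culture. The p-values here therefore rest on sample-to-sample spread that may be only technical.

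NRF2, encoded by Nfe2l2, is a transcription factor that pairs with small MAF proteins on antioxidant response elements. KEAP1 is the adaptor through which the CUL3 ubiquitin ligase marks NRF2 for destruction, and oxidants or electrophiles that modify KEAP1 let NRF2 accumulate. Its targets make and recycle glutathione and thioredoxin, reduce quinones and peroxides, and break down heme. Hmox1, encoding heme oxygenase 1, is also held down by the repressor BACH1, which leaves its enhancers when heme binds it.

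RNA was hybridised to single-colour bead arrays, whose probes give an average intensity and a detection p-value against negative control beads. The median intensity was 143 to 152 on the 6 arrays, and 46.4% to 48.7% of probes were above background (detection p under 0.05). Of the fibroblast markers checked, 8 of 10 were detected, Lum and Thy1 not. The mean log2 level of that marker list was 8.88 to 9.01 with truncated NELF-B, against 9.24 to 9.30 with full-length NELF-B.

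The antioxidant response element was looked for in the promoters, since this is the DNA site on which NRF2 acts. The RefSeq promoter table (build GRCm38.p6) held windows for 7 of the 10 members, 9 windows in all. The promoters of Hmox1, Gclc and Gsr were not analysed here. The core of the element, TGACNNNGC on either strand, lay in the 250 bases before the start in 4 of the 9 windows, belonging to Nfe2l2, Gclm, Prdx1 and the second of the 3 windows of Txnrd1. Of all 32851 windows, 10.2% held it in those 250 bases. The Prdx1 match, TGACTCAGC on the reverse strand, overlaps the AP-1 motif TGAGTCA, which 4.46% of all windows hold. The promoters of Gclm and Prdx1 are shown because these were the tested targets, apart from Hmox1, whose normalized values did not overlap between the forms. The Nfe2l2 promoter is shown because it is that of NRF2 itself. Capitals mark the core, which in Gclm (chr3:122245307-122245556, plus strand) begins 134 bases before the start, in Prdx1 (chr4:116685349-116685598, plus strand) 133 bases before it, and in Nfe2l2 (chr2:75704664-75704913, minus strand) 240 bases before it. A match of letters does not show that a factor binds there. A window without a match does not show that the gene lacks the site, since bases further upstream were not searched.
Gclm: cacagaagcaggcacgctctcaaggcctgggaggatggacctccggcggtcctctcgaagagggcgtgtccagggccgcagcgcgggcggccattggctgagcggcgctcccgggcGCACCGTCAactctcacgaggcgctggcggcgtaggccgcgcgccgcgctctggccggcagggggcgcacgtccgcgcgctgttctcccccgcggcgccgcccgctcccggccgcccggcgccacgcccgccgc
Prdx1: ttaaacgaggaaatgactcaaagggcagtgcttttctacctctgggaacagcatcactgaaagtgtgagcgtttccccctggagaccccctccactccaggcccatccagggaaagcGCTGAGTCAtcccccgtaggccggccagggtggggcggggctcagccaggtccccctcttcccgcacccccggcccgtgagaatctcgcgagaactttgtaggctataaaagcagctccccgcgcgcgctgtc
Nfe2l2: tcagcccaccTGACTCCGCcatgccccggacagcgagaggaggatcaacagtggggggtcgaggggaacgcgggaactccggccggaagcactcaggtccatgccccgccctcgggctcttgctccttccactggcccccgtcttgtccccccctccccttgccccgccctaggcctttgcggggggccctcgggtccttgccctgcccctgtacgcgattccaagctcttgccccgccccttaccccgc

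The comparison asks whether the antioxidant genes differ with the form of NELF-B. Hmox1 had the largest difference among the tested members, a lower signal with the truncated form, but it did not pass the test. The other 6 tested members, regulators and targets alike, had log2 fold changes of -0.12 to 0.20. Their 95% intervals lay within 2-fold either way, as did those of 97.2% of all genes tested. None of the 7 tested members passed at an adjusted p under 0.05 with limma and Benjamini-Hochberg adjustment over all genes, where 1.6% of all genes tested did (0.512% higher and 1.09% lower with the truncated form). Without adjustment, 1 of the 7 (Hmox1) had p under 0.05, against 20.1% of all genes. Each fold change divides truncated by full-length and carries limma's standard error (SE), with n = 3 arrays per form.

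Hmox1, which opens the heme ring to release iron, carbon monoxide and biliverdin, was read by 1 probe, above background on all 6 arrays. Its intensity was 202, 329 and 218 on truncated replicates 1, 2 and 3, against 440, 364 and 473 on full-length replicates 1, 2 and 3. The forms did not overlap, but truncated replicate 2 lay close to full-length replicate 2 and far above the other truncated arrays. After background correction and normalization the log2 level averaged 6.97 ± 0.67 with truncated NELF-B and 8.19 ± 0.36 with full-length NELF-B (SD, n = 3 each). The log2 fold change was -1.22 ± 0.31, a 2.32-fold lower signal with a 95% interval of 1.43-fold to 3.79-fold lower (adjusted p = 0.0869, limma). A two-sided exact permutation test gave p = 0.1, its minimum with 3 arrays per form. By size, Hmox1 ranked 10 among the decreases of 8990 genes, and by p it ranked 373. Only 0.311% of genes had a value at least 2-fold lower. Its SE of 0.31 compares with 0.10 to 0.14 for the other tested members.

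The result for Hmox1 turned on the processing and on 1 array. Without truncated replicate 2 the log2 fold change was -1.60 ± 0.21 and passed (adjusted p = 0.0429). Without any other single array it was -1.41 to -0.97 and did not pass. It passed with a variance trend and robust estimation (-1.22 ± 0.26, adjusted p = 0.00995), and also in 4 settings that take off less background or add a larger constant, which shrinks the fold of a dim probe, such as no background correction (-0.73 ± 0.15, adjusted p = 0.0135). Over 18 alternatives the value was below 0 in all 18, from -1.60 to -0.69, and past the threshold in 6, with adjusted p from 0.00535 to 0.261. Settings that changed only the filter, the averaging of probes, the variance model or the replicate block repeat -1.22 by construction. All 18 draw on the same 6 arrays. With all arrays, the settings where Hmox1 passed called 534 to 731 of 8990 genes, against 144 in the reported fit. Without truncated replicate 2, 9 genes were called.

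**Figure D1:**
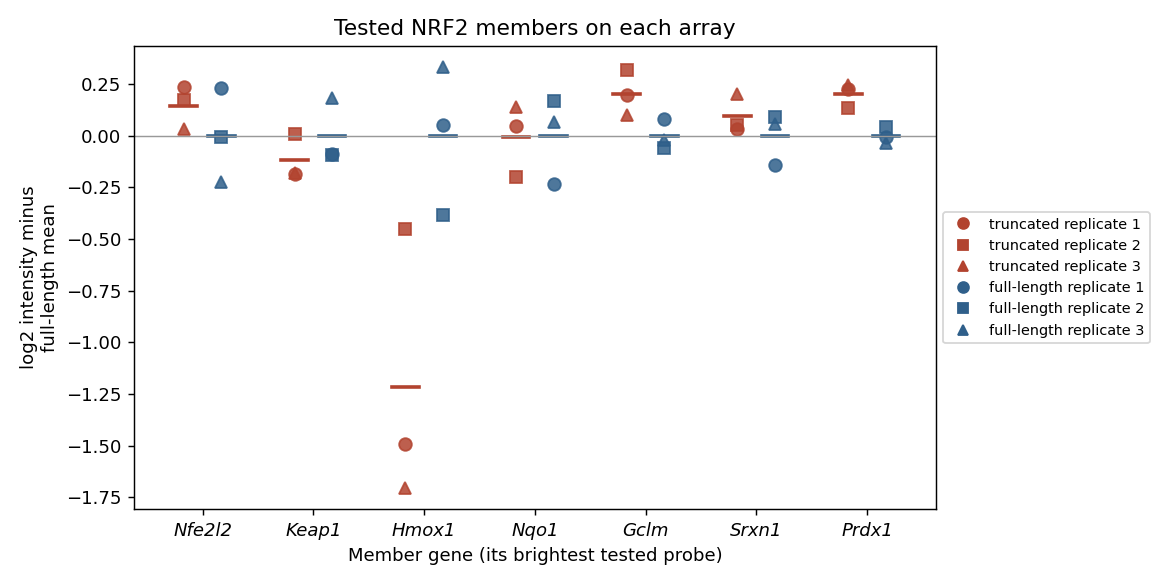
The log2 intensity of each tested member on each array, after subtracting the mean of its full-length arrays. Within each gene the truncated arrays stand left in red and the full-length arrays right in blue, with bars for means and marker shapes for replicates. Hmox1 on truncated replicates 1 and 3 lies 1.49 and 1.71 below the full-length mean and on truncated replicate 2 only 0.45 below it, while the other genes stay between -0.24 and 0.32.

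Among the regulators, Nfe2l2 gave no detectable difference at this precision. Its brighter probe had intensities of 311, 335 and 339 on truncated replicates 1 to 3, against 363, 332 and 279 on full-length replicates 1 to 3, and the forms overlapped. The log2 fold change was 0.15 ± 0.14 with a 95% interval of -0.16 to 0.46 (adjusted p = 0.596, limma). The second Nfe2l2 probe was not above background on any array.

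Keap1 was the member with the most readings, 4 probes that were above background on all 6 arrays. The brightest read 1074, 1373 and 1357 on truncated replicates 1 to 3 and 1373, 1377 and 1544 on full-length replicates 1 to 3. Its log2 fold change was -0.12 ± 0.12 with a 95% interval of -0.39 to 0.16 (adjusted p = 0.633, limma). In a fit of every probe the other 3 Keap1 probes gave -0.07 ± 0.11, 0.00 ± 0.11 and 0.04 ± 0.11. The forms overlapped on every Keap1 probe.

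The enzymes of glutathione synthesis were read unevenly. Gclm, the modifier subunit of glutamate-cysteine ligase, which catalyses the rate-limiting step, had intensities of 664, 805 and 786 on truncated replicates 1 to 3, against 750, 703 and 653 on full-length replicates 1 to 3. These raw values overlap. After normalization the forms did not, at 9.33, 9.46 and 9.24 with the truncated form and 9.22, 9.08 and 9.12 with the full-length form on the log2 scale. The log2 fold change was 0.20 ± 0.11 with a 95% interval of -0.04 to 0.45 (adjusted p = 0.339, limma). Gclc, the catalytic subunit, had a single probe that was not above background on any array, at 128 to 140 with the truncated form and 138 to 152 with the full-length form. No value is given for Gsr, the glutathione reductase.

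None of the thioredoxin and peroxiredoxin members passed. Prdx1, an abundant peroxidase, had intensities of 14842, 16438 and 18206 on truncated replicates 1 to 3, against 15388, 15304 and 14998 on full-length replicates 1 to 3. These raw values overlap, as truncated replicate 1 lies below all full-length arrays. After normalization the forms did not overlap, with mean log2 levels of 14.05 ± 0.06 for truncated NELF-B and 13.84 ± 0.04 for full-length NELF-B (SD, n = 3 each). The log2 fold change was 0.20 ± 0.10 with a 95% interval of -0.03 to 0.43 (adjusted p = 0.303, limma). A second Prdx1 probe was not above background on any array. With Hmox1, Gclm and Prdx1, 3 of the 7 tested members had normalized values that did not overlap between the forms, against 25.7% of all genes tested.

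Srxn1, the sulfiredoxin that restores over-oxidised peroxiredoxins, was read by 3 probes, all above background on all arrays. The brightest read 856, 969 and 1181 on truncated replicates 1 to 3, against 919, 1067 and 965 on full-length replicates 1 to 3, and the forms overlapped. Its log2 fold change was 0.10 ± 0.11 with a 95% interval of -0.16 to 0.35 (adjusted p = 0.685, limma). In the fit of every probe the others gave 0.30 ± 0.13 (adjusted p = 0.247, limma) and 0.08 ± 0.25. The 3 Srxn1 probes had the same sign and none passed.

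Txnrd1, the cytosolic thioredoxin reductase, was near background. Its only probe was above background on truncated replicates 1 and 2 and on no full-length array, so it was not tested. The intensities were 153, 156 and 151 on truncated replicates 1 to 3 and 151, 139 and 138 on full-length replicates 1 to 3. The normalized values of the forms overlapped. No fold is given, since truncated replicate 3 was not above background either.

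Nqo1, the quinone reductase often used as a readout of NRF2, had a value near 0. Its brighter probe had intensities of 291, 290 and 363 on truncated replicates 1 to 3, against 304, 367 and 320 on full-length replicates 1 to 3, with overlap. The log2 fold change was 0.00 ± 0.14, with a 95% interval of -0.33 to 0.32 (adjusted p = 0.992, limma). Its other probe was not above background on any array.

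**Figure D2:**
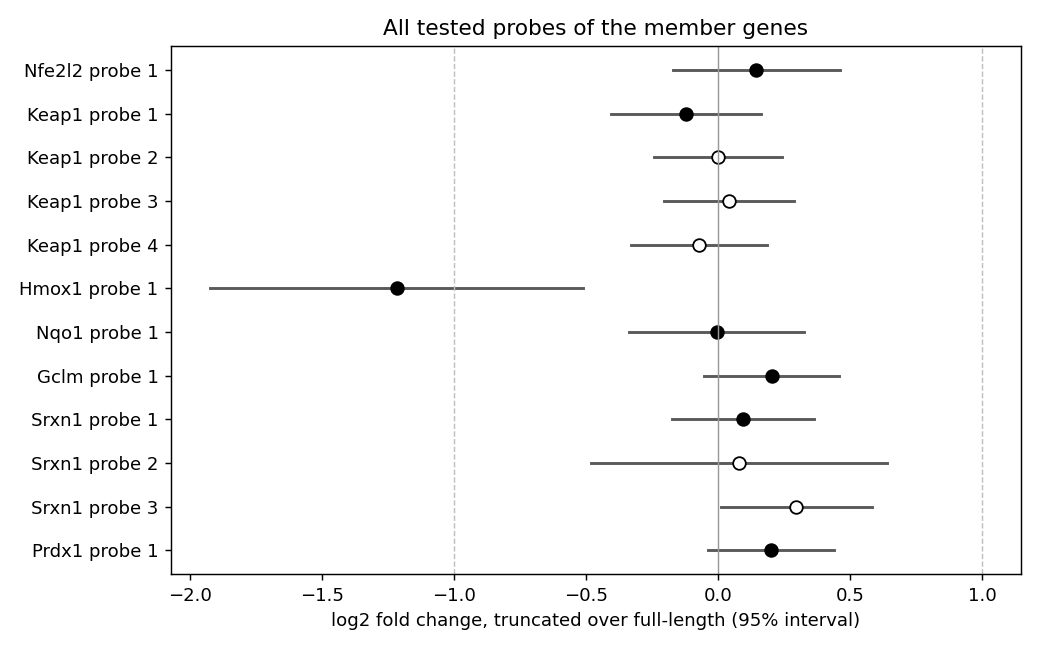
Log2 fold change, truncated over full-length, of each of the 12 tested member probes, with its 95% interval from a limma fit of every probe. Filled points mark the probe that stands for a gene and dashed lines mark 2-fold. The intervals of Hmox1 and of the third Srxn1 probe exclude 0, and no adjusted p in this fit was under 0.05, where 0.638% of all probes passed.

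Because the difference between Hmox1 and the rest is the largest contrast among the members, it was set against each of them on the same arrays. The Hmox1 change minus that of Gclm was -1.42 ± 0.38 on the log2 scale, with values of -1.69, -0.77 and -1.80 on truncated replicates 1 to 3, against -0.03, -0.33 and 0.36 on full-length replicates 1 to 3. The difference of changes was -1.42 ± 0.48 relative to Prdx1, -1.36 ± 0.47 relative to Nfe2l2, -1.31 ± 0.48 relative to Srxn1 and -1.10 ± 0.36 relative to Keap1 (SE over arrays, n = 3 each). For those 5 genes an exact two-sided permutation test over the arrays gave p = 0.1, its minimum in this design, and 0.12 after adjustment over 6 pairs. Relative to Nqo1 it was -1.21 ± 0.56 (exact permutation p = 0.2, adjusted 0.2), because truncated replicate 2 lay above full-length replicate 2. No pair could have passed 0.05 in that test with 3 arrays per form, so its p-values do not bear on whether the changes differ. The 95% interval of the difference, from the pooled spread over arrays and not adjusted for 6 pairs, excluded 0 for 4 of them: Gclm (-2.48 to -0.36), Keap1 (-2.09 to -0.10), Prdx1 (-2.76 to -0.079) and Nfe2l2 (-2.66 to -0.066). It included 0 for Srxn1 (-2.65 to 0.030) and Nqo1 (-2.77 to 0.35). Hmox1 was picked for its large difference on these same arrays, and all 6 pairs share its values. The intervals are therefore not independent of each other or of that choice, and they describe these arrays only.

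Other genes of the pathway gave little that moved as a group. Of 12 tested partners and turnover factors of NRF2 (of 15 named), none passed, against 1.6% of all genes, and 2 had p under 0.05 without adjustment, against 20.1% of all genes. The median log2 fold change was -0.04, against 0.01 over all genes tested. Bach1, the repressor that competes with NRF2 for the sites of Hmox1, had log2 levels of 8.69, 8.91 and 8.92 on truncated replicates 1 to 3, against 9.43, 9.35 and 9.30 on full-length replicates 1 to 3. Those arrays did not overlap, and the value of -0.52 ± 0.11 missed the threshold (adjusted p = 0.0582, limma). It passed in 7 of 18 alternatives, with adjusted p from 0.00675 to 0.206, and was below 0 in all 18. Those 7 settings called 252 to 731 genes over all, against 144 in the reported fit. Pgam5, a mitochondrial phosphatase that binds KEAP1, stood at 0.33 ± 0.12, Sqstm1, the autophagy receptor that sequesters KEAP1, at -0.21 ± 0.10, and Bach2, the BACH1 relative, at -0.12 ± 0.13.

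In thiol and peroxide defence, 1 of 24 tested genes (of 25 named) rose, none fell and 23 did not pass, with a median of -0.03. Over all genes tested, 0.512% rose. Without adjustment, 7 of the 24 had p under 0.05, against 20.1% of all genes. The riser was Slc7a11, the cystine transporter that supplies glutathione synthesis, with log2 levels of 6.32, 6.66 and 6.23 on truncated replicates 1 to 3, against 5.45, 5.75 and 5.07 on full-length replicates 1 to 3. Its log2 fold change was 0.98 ± 0.19 (adjusted p = 0.0482, limma), the opposite sign to Hmox1, and 2 of the 3 full-length arrays detected its probe. The size depends on the background correction: it was 0.33 with none, 0.32 in the series matrix values and 0.51 with normexp without controls, each past the threshold. The call was lost without truncated replicate 1 or 2 and without any 1 of the full-length arrays. Those fits called 0 to 9 genes over all, and the Slc7a11 value in them was 0.80 to 1.14. The call was also lost with median scaling and with no filter on dim probes. Catalase (Cat) stood at -0.47 ± 0.14, the endoplasmic reticulum peroxidase gene Gpx7 at -0.36 ± 0.12 and thioredoxin (Txn1) at 0.41 ± 0.15, none past the test.

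Of 15 tested genes of NADPH supply and detoxification (of 20 named), 1 fell, none rose and 14 did not pass, with a median of -0.04. Over all genes tested, 1.09% fell. Without adjustment, 5 of the 15 had p under 0.05, against 20.1% of all genes. Aldh3a1, an aldehyde dehydrogenase, fell by 0.63 on the log2 scale (SE 0.10, adjusted p = 0.0347, limma). It read 8.16, 8.04 and 8.18 on truncated replicates 1 to 3, against 8.80, 8.68 and 8.79 on full-length replicates 1 to 3, with no overlap. The call was lost without truncated replicate 1 or 2 and without any 1 of the full-length arrays. Those fits called 0 to 9 genes over all, and the Aldh3a1 value in them was -0.67 to -0.59. The call was also lost with no filter on dim probes and with the replicate number as a block (adjusted p = 0.0780, limma). The growth inhibitor gene Osgin1 stood at -0.39 ± 0.13 and the carbonyl reductase genes Cbr3 at -0.26 ± 0.10 and Cbr1 at -0.27 ± 0.11, none past the test.

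The other heme and iron genes, like Hmox1, gave no call. None of 17 tested (of 20 named) passed, against 1.6% of all genes, 3 had p under 0.05 without adjustment, against 20.1% of all genes, and the median was 0.04. Hmox2, the constitutive heme oxygenase, stood at -0.27 ± 0.12 (adjusted p = 0.235, limma), with 9.60, 9.50 and 9.77 on truncated replicates 1 to 3, against 9.82, 9.86 and 10.01 on full-length replicates 1 to 3. The transferrin receptor gene Tfrc stood at 0.42 ± 0.14, the iron exporter gene Slc40a1 at -0.42 ± 0.16 and the iron regulatory protein gene Aco1 at 0.36 ± 0.16, with adjusted p from 0.143 to 0.249. All 17 had intervals within 2-fold, as did 97.2% of all genes.

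**Figure D3:**
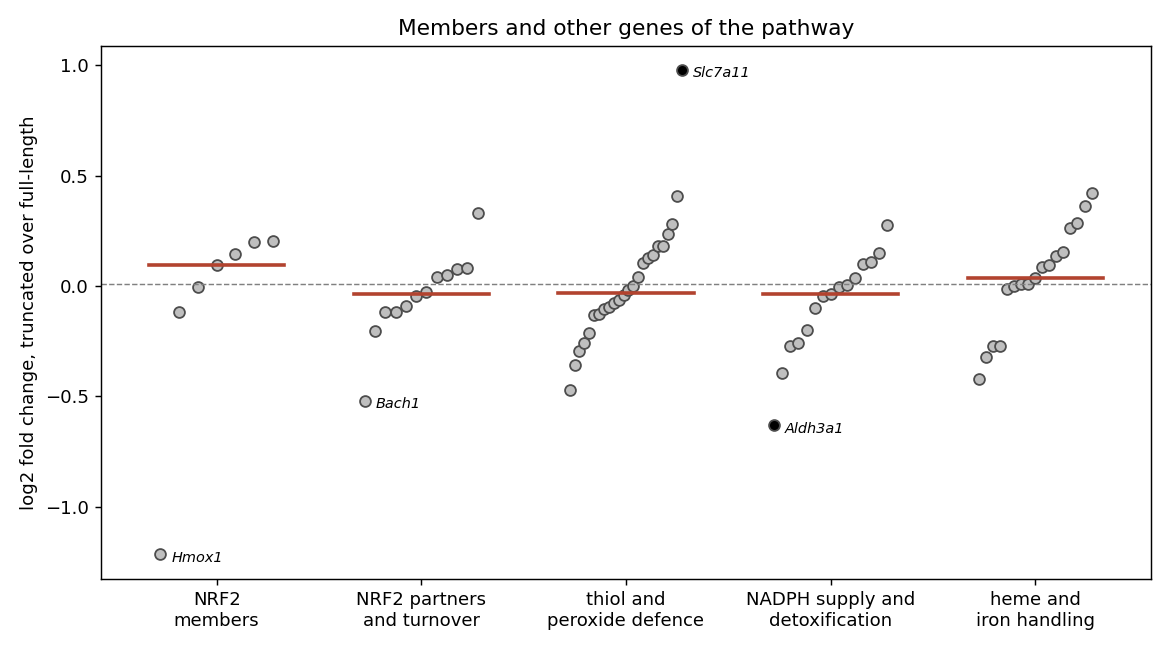
Log2 fold change, truncated over full-length, of the tested genes of each list, ordered by size within a list. Black points passed the test (Slc7a11 and Aldh3a1), grey points did not, red bars are medians and the dashed line is the median of all genes. Every list median lies within 0.1 of 0, and Hmox1 at -1.22 is the lowest point.

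Macrophages, known for high Hmox1, were checked through their markers. Of 10 macrophage markers 3 were above background on at least 3 arrays (Cd14, Cd68 and Csf1r), and Ptprc, Adgre1, Lyz2, Itgam, Tyrobp, Fcer1g and Aif1 were not. The mean level of the whole list was 5.34 to 5.52 with truncated NELF-B, against 5.37 to 5.49 with full-length NELF-B. The marker Cd14 stood at -0.30 ± 0.10 (adjusted p = 0.151, limma) with no overlap, and Cd68 and Csf1r at -0.06 ± 0.16 and 0.09 ± 0.20. Of the other marker lists, 1 of 7 erythroid genes with a probe (Epor), 1 of 6 epithelial genes (Cdh1) and 2 of 6 endothelial genes (Esam and Kdr) were above background on at least 3 arrays. The erythroid mean level was 4.60 to 4.87 with truncated NELF-B and 4.74 to 4.82 with full-length NELF-B. The epithelial one was 4.64 to 4.71 with truncated NELF-B and 4.68 to 4.90 with full-length NELF-B, and the endothelial one 4.78 to 4.88 with truncated NELF-B and 4.88 to 5.05 with full-length NELF-B. The mean fibroblast marker level was lower on the truncated arrays, as was Hmox1, and its part in the result was not tested. Of the 8 tested fibroblast markers, 1 passed (Dcn, -0.79 ± 0.14, adjusted p = 0.0441, limma). Col1a1 (-0.46 ± 0.12), Col1a2 (-0.58 ± 0.12), Col3a1 (-0.66 ± 0.15), Pdgfra (-0.49 ± 0.17) and Pdgfrb (-0.24 ± 0.10) also had values below 0, none past the test. Vim (0.08 ± 0.13) and S100a4 (0.12 ± 0.11) had values above 0. In bulk RNA, fewer cells of a type and less RNA per cell cannot be told apart.

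The genes most like Hmox1 over the 6 arrays, among 538 tested genes that are not members and span at least 1 log2 unit, were Pgap3, a GPI anchor remodelling gene (Pearson r = 0.98), H3c7, a histone H3 gene with near-identical copies (0.97), Pdcd4, an inhibitor of translation initiation (0.95), Itm2a, a membrane protein gene (0.95), and Kazald1, a secreted protein gene (0.94). These r values describe 6 arrays that share the 2 forms. Pgap3 had log2 levels of 5.43, 5.92 and 5.16 on truncated replicates 1 to 3, against 6.11, 6.05 and 6.30 on full-length replicates 1 to 3. Genes chosen for a high r with Hmox1 share its order of arrays by that choice.

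**Figure D4:**
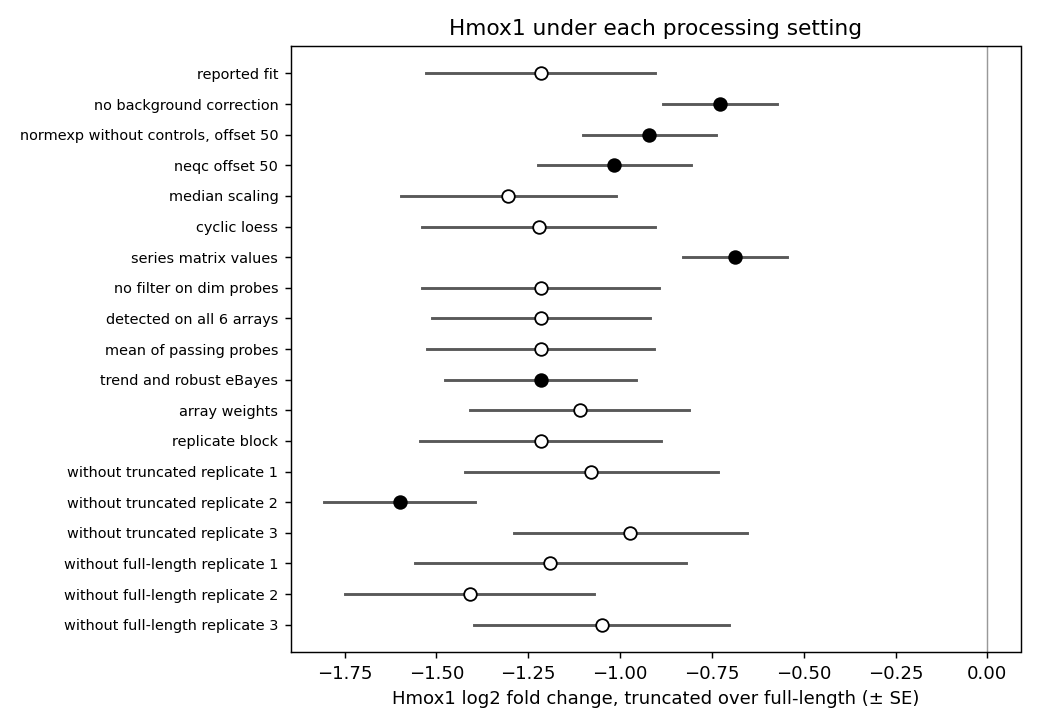
Hmox1 log2 fold change, truncated over full-length, with its SE, under the reported processing and each of 18 alternatives. Filled points have an adjusted p under 0.05 (6 of 18). All values lie below 0, several of them equal to the reported one by construction, and the lowest is that without truncated replicate 2.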

How the data were processed

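Per the file headers, the deposited table is not normalized and lists 25697 probes, each with a mean intensity and a detection p-value on 6 arrays. The lowest deposited intensity was 103. The submitters' processing notes name GenomeStudio. A second deposited table of intensities, which look quantile normalized, was an alternative only. All value columns were used (0 left out). The labels name neither chip nor scan date. No 2 arrays were identical (0 pairs).

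Probes were named through RefSeq accessions (24202 of 25697), then current symbols (536) or unique synonyms (297), and 662 kept the file's symbol. Limma 3.58.1 (R 4.3.3) corrected the background by normexp with controls inferred from the detection p-values (neqc, offset 16) and applied quantile normalization and log2, which understates folds of dim probes. Probes with detection p under 0.05 on at least 3 arrays were kept (12227), with the brightest for each gene (8990 genes). The forms were compared with lmFit and eBayes, with adjustment over all genes. The fit was also run on simulated data with independent normal noise, which does not show how far the real calls depend on single arrays. The number of arrays limits the precision. Figures used matplotlib 3.10.9.

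The members and lists were chosen with earlier results of these data known. Named genes are the members, the called genes and the 4 with the smallest p of each list, and the 5 genes most like Hmox1 by Pearson r. Fibroblast, macrophage, erythroid, epithelial and endothelial markers were checked.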

Additional observations from a re-analysis of the deposited data

How the results depend on the processing

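Over 18 alternatives, Nfe2l2, Keap1, Gclm, Srxn1 and Prdx1 kept their direction in all 18 and never passed. Nqo1, near 0, turned to 0.029 with array weights, and leaving out 1 array moved it between -0.12 and 0.093, above 0 without truncated replicate 2 (0.093), full-length replicate 2 (0.078) and full-length replicate 3 (0.029). Hmox1 passed at -0.73 with no background correction, -0.92 with normexp without controls and -1.02 with an offset of 50. It also passed at -0.69 with the series matrix values and -1.22 with trend and robust eBayes. In each of these settings 1 member was called. Over all genes, they called 706, 633, 534, 731 and 723 of 8990, against 144 in the reported fit. Leaving out 1 array gave -1.60 to -0.97 for Hmox1 and 0 to 1 called members. All 108 differences between Hmox1 and another member stayed below 0 (-1.84 to -0.58). They are not 108 separate results, since all share the Hmox1 values of the same arrays, on which Hmox1 was picked. Settings that leave the normalized values unchanged repeat the reported differences by construction.

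The genes called over all numbered 144 in the reported fit, 706 with no background correction, 633 with normexp without controls, 534 with an offset of 50, 81 with median scaling, 731 with the series matrix values, 33 with no filter, 252 with probes detected on all 6 arrays, 723 with trend and robust eBayes and 355 with array weights. Leaving out truncated replicate 1, 2 or 3 gave 0, 9 and 276 genes, and leaving out full-length replicate 1, 2 or 3 gave 0, 0 and 6. In the 3 fits with 0, limma gave 1196, 1434 and 1547 genes at an unadjusted p under 0.05. The share lower was 68.1% in the reported fit, 52.5% with no background correction and 85.2% with median scaling.

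The NRF2 partners list, with 0 reported, had 1, 1, 1, 2, 1 and 1 called genes in 6 settings. These were no background correction, normexp, offset 50, series matrix, trend and robust eBayes, and array weights. Over all genes they called 706, 633, 534, 731, 723 and 355 of 8990, against 144 reported. With probes detected on all 6 arrays the list had 1 called gene, and 252 of 7983 genes were called over all. The counts of each list are to be read beside these. The thiol list, with 1 reported, had 3 with no background correction, 2 with normexp, 5 with the series matrix, 3 with trend and robust eBayes, and 0 with median scaling, no filter or probes detected on all 6 arrays, the last because Slc7a11 was not tested there. The NADPH list, with 1 reported, had 2 with no background correction or the series matrix and 0 with no filter. The heme list, with 0 reported, had 1 with no background correction, normexp, the series matrix or trend and robust eBayes. Leaving out 1 array gave 0 to 1 called genes in the thiol, NADPH and heme lists. The other causes were not tested.

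The deviations of same-numbered arrays had correlations of only 0.03, -0.16 and -0.14, so the numbers were not taken to pair the samples. With the replicate block 33 genes were called, Hmox1 stood at -1.22 (adjusted p = 0.140, limma), and the NADPH list had 0 called genes.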
